A study of Mus musculus with 6 samples.

Results

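The genes for the troponins and the sarcomeric tropomyosins were followed across 3 pools of mouse muscle RNA. The 9 genes, found by symbol in the platform annotation, were the troponin T genes Tnnt1 and Tnnt3, the troponin I genes Tnni1 and Tnni2, the troponin C genes Tnnc1 and Tnnc2, and the tropomyosin genes Tpm1, Tpm2 and Tpm3. These 9 of the 8251 genes that the annotation names had 13 probe sets among the 12488 on the Affymetrix MGU74Av2 array, which carries short oligonucleotide probes for mouse transcripts. The eccentric pool came from the tibialis anterior, the muscle at the front of the shin, 48 h after 50 contractions in which the active muscle was lengthened. The isometric pool came from the same muscle 48 h after 50 contractions at fixed length. The control pool came from legs opposite to exercised ones, which had been stimulated only as far as a torque measurement needed. The labels give no strain, sex, age or genotype, and do not say which exercised animals the control legs belonged to. Each pool held the RNA of 4 animals and was split onto 2 arrays, A and B, so a group was 1 biological sample, no p-value for the kind of contraction exists, and the SD over n = 2 arrays covers labelling and hybridisation only.

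In striated muscle the thin filament is an actin filament with tropomyosin lying along it and a troponin complex bound at regular spacing. Troponin C binds calcium, troponin I holds the filament off in its absence, and troponin T ties the complex to tropomyosin, so that calcium release moves tropomyosin and lets myosin bind. Fast and slow fibres use different genes for each troponin subunit. Tnnt3, Tnni2 and Tnnc2 encode the fast forms and Tnnt1, Tnni1 and Tnnc1 the slow forms, of which Tnnc1 is also the cardiac form. Tpm1 encodes alpha-tropomyosin of fast fibres and of heart, Tpm2 encodes beta-tropomyosin, and Tpm3 the alpha-tropomyosin of slow fibres; other isoforms of these genes occur in smooth muscle or non-muscle cells. The mouse tibialis anterior is made up mostly of fast fibres.

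The windows just upstream of the annotated starts of 3 of these genes are shown because they hold the fast and slow versions of a single subunit, troponin C, and the tropomyosin with the narrowest range of eccentric minus control differences. They are the 250 bases before a start, from RefSeq on GRCm38.p6, written 5′ to 3′ on the strand of the gene, with each E-box (CANNTG, a sequence that myogenic and other helix-loop-helix factors can bind) in capitals.
Tnnc2, chr2:164779735-164779984, minus strand: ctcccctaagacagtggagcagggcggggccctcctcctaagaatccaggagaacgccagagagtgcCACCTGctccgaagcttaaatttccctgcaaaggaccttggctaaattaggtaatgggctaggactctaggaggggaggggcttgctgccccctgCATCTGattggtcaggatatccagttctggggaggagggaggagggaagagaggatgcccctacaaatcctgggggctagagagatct
Tnnc1, chr14:31208062-31208311, plus strand: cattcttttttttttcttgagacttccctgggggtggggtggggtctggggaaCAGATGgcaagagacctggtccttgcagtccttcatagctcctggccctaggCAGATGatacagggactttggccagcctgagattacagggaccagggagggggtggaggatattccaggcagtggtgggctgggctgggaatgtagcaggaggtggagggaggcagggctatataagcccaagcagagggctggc
Tpm2, chr4:43523555-43523804, minus strand: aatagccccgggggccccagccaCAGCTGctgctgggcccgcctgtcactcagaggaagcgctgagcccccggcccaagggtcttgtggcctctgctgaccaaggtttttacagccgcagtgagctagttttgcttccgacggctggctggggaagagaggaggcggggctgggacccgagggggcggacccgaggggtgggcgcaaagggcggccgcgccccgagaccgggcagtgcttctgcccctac
Windows were found for 7 of the 9 genes, 9 in all because Tnni1 and Tpm3 had more than 1, and Tnnt3 and Tnni2 were not matched. An E-box, whose letters read alike on both strands, was present in all 9 windows, and 66.2% of 32851 windows of all genes also held at least 1. The MEF2 motif was found in 0 of the 9 on either strand, against 2.92% of all windows. The TATAAA motif was found on either strand in the window of Tnnt1 alone, against 12.4% of all. The array does not report which start a transcript used, so these are the letters of the annotated windows only.

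Of the 13 probe sets, 9 were measured, exactly 1 per gene, meaning that they lay above a floor of 120.8 (the 40th percentile of all signals) on both arrays of at least 1 pool in a comparison. The other 4 were dim. Second probe sets of Tnnc2 and Tpm3 lay below the floor on all 6 arrays, at 4.4 to 21.7 and 25.8 to 42.9. A second probe set of Tpm2 passed the floor only on control B, at 136.7, and one of Tnnt1 only on isometric A, at 298.2 against 69.5 to 92.4 on the other arrays. The bright probe set of Tnnc2 carries the suffix that Affymetrix gave to probes that can match several related sequences, so signal from relatives cannot be told apart from that of Tnnc2.

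No measured member differed 2-fold between any pair of pools. In the eccentric pool all 9 measured members had a lower mean log2 signal than in the control pool at this scaling, with log2 differences of -0.04 to -0.59 and a median of -0.32, against -0.03 over all measured probe sets. In 6 of the 9, Tnnt3, Tnni2, Tnnc2, Tnnt1, Tpm2 and Tpm3, both eccentric arrays lay below both control arrays, where 31.5% of 7486 measured probe sets did so and 30.1% lay above. The 2-fold rule, which also asked that the arrays of both pools not overlap, was passed by 0 of 9 members and by 5.97% of measured probe sets. In the isometric pool 3 of 9 members lay below both control arrays and 0 above, the median was -0.07 against -0.01 over all measured probe sets, and the backgrounds were 19.5% lower and 18.5% higher. The median log2 difference of eccentric minus control was -0.32 over the 3 fast troponins, -0.26 over the 3 slow troponins and -0.45 over the 3 tropomyosins.

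**Figure D1:**
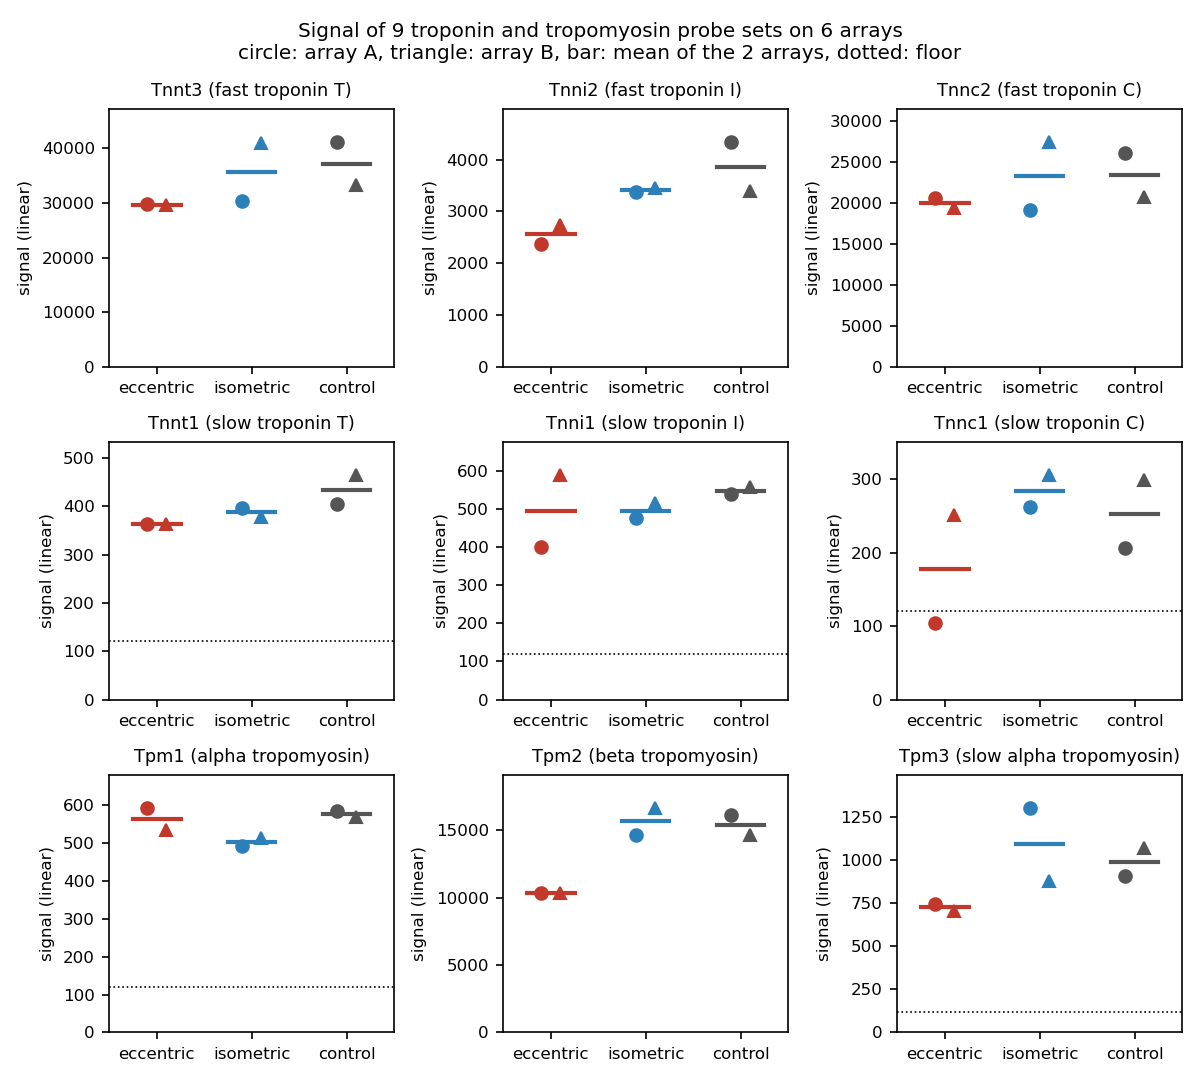
Deposited signal (linear, vertical axes from 0) of the measured probe set of each gene on the eccentric, isometric and control arrays, with a circle for array A, a triangle for array B, a bar for the mean of the 2 and, in the dim panels, a dotted line at the floor of 120.8. The eccentric arrays of Tpm2, at 10367.1 and 10339.1, lie below the other 4 arrays, whereas Tnnt3 and Tnnc2 are brightest on isometric B and control A.

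Among the fast troponins, Tnni2, which encodes the inhibitory subunit of fast fibres, stood lowest in the eccentric pool. Its signals were 2376.2 and 2741.2 on the eccentric arrays, 3367.4 and 3453.2 on the isometric arrays, and 4332.5 and 3399.3 on the control arrays. The eccentric arrays lay below the 4 others, and the isometric arrays overlapped the control arrays. Log2 differences were -0.59 for eccentric minus control (pairings of single arrays -0.87 to -0.31), -0.42 for eccentric minus isometric (-0.54 to -0.30) and -0.17 for isometric minus control (-0.36 to 0.02).

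Tnnt3, the fast troponin T that anchors the complex on tropomyosin, was 1 of the brightest probe sets on every array, ranking 9 to 16 of 12488. It read 29781.6 and 29617.2 on the eccentric arrays, 30308.0 and 40919.9 on the isometric arrays, and 41104.2 and 33323.0 on the control arrays. The eccentric arrays were lowest, but isometric A lay only slightly above them, and the 2 arrays of the isometric pool differed more than the pools did. This gave log2 differences of -0.32 for eccentric minus control, -0.25 for eccentric minus isometric and -0.07 for isometric minus control.

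Tnnc2, the calcium-binding subunit of fast fibres, read 20532.7 and 19303.6 on the eccentric arrays, 19070.3 and 27362.0 on the isometric arrays, and 26082.2 and 20684.3 on the control arrays. Eccentric A and control B were nearly equal, so the pools were apart by a log2 difference of only -0.01 in the closest pairing. Its mean log2 difference was -0.22 for eccentric minus control, -0.20 for eccentric minus isometric, with overlap, and -0.02 for isometric minus control, with overlap.

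The 2 bright troponins followed an unevenness between arrays that bears on how far their values can be read. On control A and isometric B the upper end of the signal range was stretched: the highest signal was 58474.7 on control A and 58952.9 on isometric B, against 36100.9 to 44050.6 on the other 4 arrays. Over the 124 brightest probe sets, 1% of those on the array without control probe sets, isometric B exceeded isometric A by a median log2 of 0.33 and control A exceeded control B by 0.19, while eccentric A exceeded eccentric B by 0.05. Tnnt3, Tnnc2 and Tpm2 are among these 124. For eccentric against control, 79 of the 124 lay lower and 26 higher without overlap, where 31.5% of all measured probe sets lay lower and 30.1% higher. The median eccentric minus control log2 difference over the 124 was -0.31. When the 6 arrays were given the same distribution by quantile normalization, the eccentric minus control log2 difference was -0.05 for Tnnt3 and 0.06 for Tnnc2, both with overlap, against -0.55 for Tnni2, -0.44 for Tpm2, -0.51 for Tpm3 and -0.31 for Tnnt1, all without overlap. Without the stretched arrays control A and isometric B, Tnnt3 and Tnnc2 had eccentric minus control log2 differences of -0.17 and -0.06, Tnni2 of -0.41 and Tpm2 of -0.50.

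**Figure D2:**
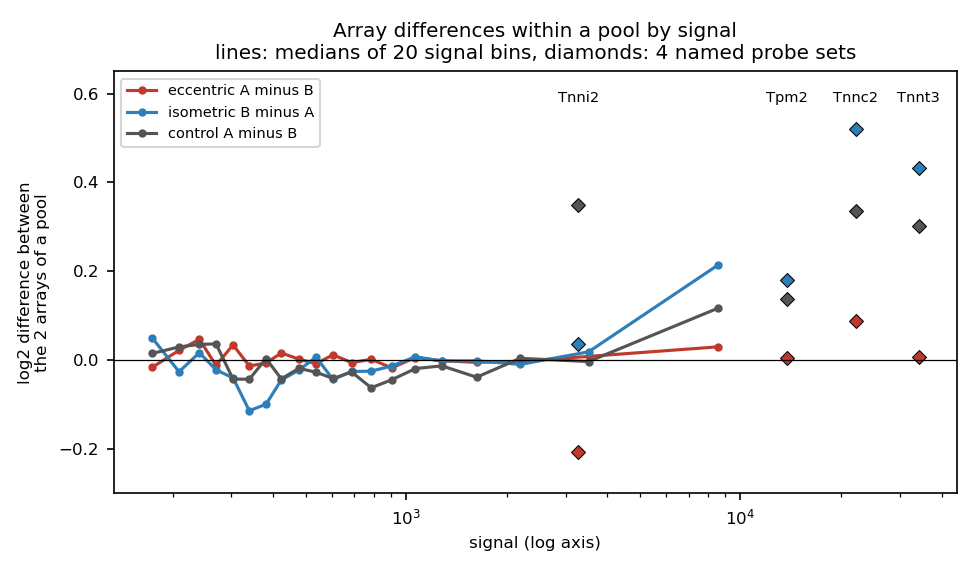
Log2 difference between the 2 arrays of each pool (vertical axis) against signal (horizontal log axis), as medians in 20 bins of probe sets above the floor on all arrays, with diamonds for Tnni2, Tpm2, Tnnc2 and Tnnt3. The isometric B minus A line dips to -0.11 in the sixth bin and has its highest value, 0.21, in the brightest bin, where control A minus B also has its highest, 0.12, and the diamonds of Tnnc2 and Tnnt3 stand above 0.2 in these 2 pools.

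Of the slow troponins, Tnnt1 alone was lower in the eccentric than in the control pool without overlap. Tnnt1, slow troponin T, read 362.4 and 362.5 on the eccentric arrays, 396.6 and 378.7 on the isometric arrays, and 405.4 and 464.1 on the control arrays. Both exercised pools lay below the control pool without overlap, and the eccentric pool was the lowest. Differences on the log2 scale were -0.26 for eccentric minus control, -0.16 for isometric minus control and -0.10 for eccentric minus isometric.

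Tnni1, slow troponin I, read 401.4 and 588.9 on the eccentric arrays, 477.6 and 515.2 on the isometric arrays, and 539.0 and 557.7 on the control arrays. The 2 eccentric arrays spanned the other 4, so no difference of the eccentric pool exceeded the spread between its arrays (log2 -0.17 against control, -0.03 against isometric). The isometric pool lay slightly below the control pool without overlap, at a log2 difference of -0.14.

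Tnnc1, the troponin C of slow fibres and heart, read 104.5 and 251.5 on the eccentric arrays, 262.6 and 305.6 on the isometric arrays, and 206.2 and 299.4 on the control arrays. Eccentric A lay below the floor and was set to it, and the eccentric arrays differed from each other by more than the pools did. On the log2 scale the difference was -0.51 for eccentric minus control (pairings -1.31 to 0.29), -0.70 for eccentric minus isometric, without overlap (-1.34 to -0.06), and 0.19 for isometric minus control, with overlap. These values rested on the floor and on eccentric A: with the floor at the 60th percentile Tnnc1 was not measured and its floored values differed by -0.0033 for eccentric minus control and -0.02 for eccentric minus isometric, and without eccentric A the differences were 0.02 and -0.17.

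Because a ratio within an array does not depend on a common scaling factor, the slow form was also set against the fast form of the same subunit on each array, and this log2 ratio was compared between pools. The ratio still takes in the stretch of the bright end, since Tnnt3 and Tnnc2 are bright and the slow forms are dim. For troponin T it was lowest on control A, at -6.66, and isometric B, at -6.76, against -6.36 to -6.17 on the other arrays. For troponin I the ratio of Tnni1 to Tnni2 was higher in the eccentric pool, by 0.42 against the control pool (pairings 0.04 to 0.79) and by 0.39 against the isometric pool (0.18 to 0.60). This ratio turned on the low Tnni2 signal, since Tnni1 itself overlapped. For troponin T the differences were 0.06 for eccentric minus control (-0.19 to 0.31), 0.15 for eccentric minus isometric (-0.10 to 0.40) and -0.09 for isometric minus control (-0.59 to 0.41). For troponin C the eccentric pool stood on the other side, at -0.29 against control (-1.30 to 0.72) and -0.50 against isometric (-1.23 to 0.22), with isometric minus control at 0.21 (-0.37 to 0.80). All ranges for troponins T and C spanned 0. The median over the 3 subunits was 0.06 for eccentric minus control and 0.03 for isometric minus control. Under quantile normalization the eccentric minus control median was -0.26. A common difference between slow and fast troponins was thus not detectable with these arrays.

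The sources used here do not state which isoforms the Tpm1, Tpm2 and Tpm3 probe sets detect, so signal of muscle forms and of other forms of these genes cannot be told apart. Tpm2, whose muscle form is beta-tropomyosin, had the narrowest range over the 4 pairings of the 9 genes for eccentric minus control. Its signals were 10367.1 and 10339.1 on the eccentric arrays, 14660.8 and 16617.9 on the isometric arrays, and 16112.6 and 14652.1 on the control arrays. The isometric and control arrays interleaved, and both eccentric arrays stood below all 4. The mean was 10353 ± 19.8 in the eccentric pool, 15639 ± 1384 in the isometric pool and 15382 ± 1033 in the control pool (SD, n = 2 arrays of 1 pool). In log2 terms this was -0.57 for eccentric minus control (pairings -0.64 to -0.50), -0.59 for eccentric minus isometric (-0.68 to -0.50) and 0.02 for isometric minus control (-0.14 to 0.18).

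Tpm3, whose muscle form is the alpha-tropomyosin of slow fibres, read 743.2 and 705.3 on the eccentric arrays, 1298.2 and 879.1 on the isometric arrays, and 908.5 and 1069.3 on the control arrays. It too was lowest on both eccentric arrays, and the isometric arrays enclosed the control arrays. The log2 difference was -0.45 for eccentric minus control (-0.60 to -0.29), -0.56 for eccentric minus isometric and 0.12 for isometric minus control.

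Tpm1, whose muscle form is the alpha-tropomyosin of fast fibres and heart, read 591.9 and 534.0 on the eccentric arrays, 492.3 and 512.6 on the isometric arrays, and 584.2 and 569.9 on the control arrays. It was the only member that lay higher in the eccentric than in the isometric pool without overlap, at a log2 difference of 0.16 (0.06 to 0.27). The isometric pool was the low one, at -0.20 against the control pool, and the eccentric pool overlapped the control pool at -0.04.

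**Figure D3:**
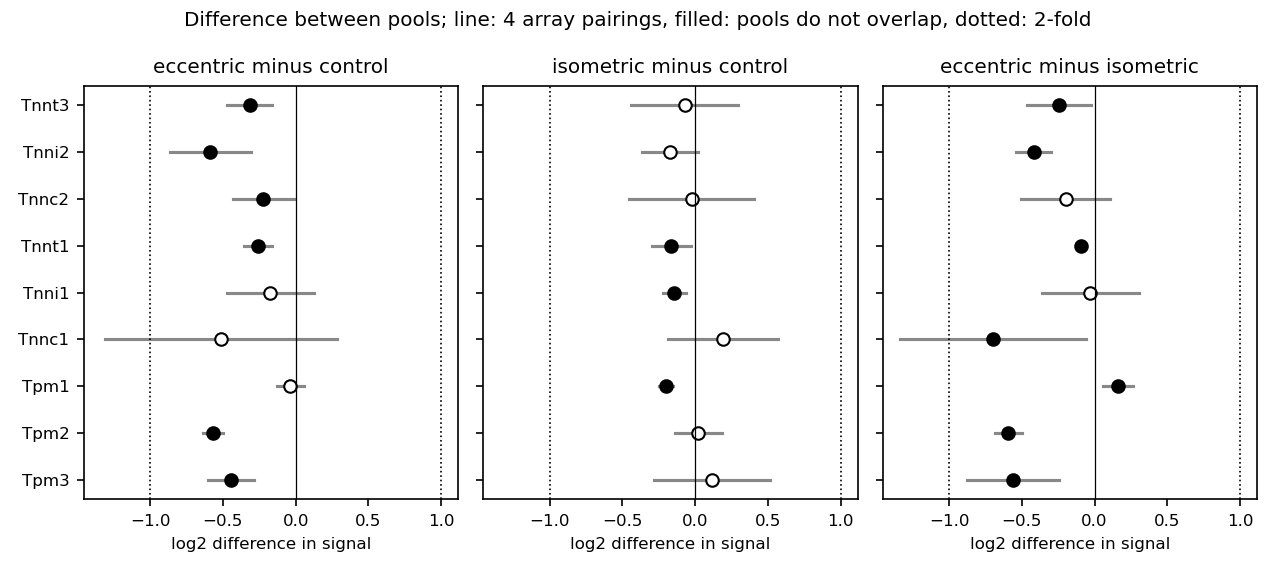
Log2 difference in signal between pools (horizontal axes) for the measured probe set of each gene, with a line over the 4 pairings of single arrays, a filled point where the arrays of the 2 pools do not overlap and dotted lines at 2-fold. Eccentric minus control runs from -0.59 for Tnni2 to -0.04 for Tpm1, and no point reaches a dotted line.

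Between the exercised pools, 6 of 9 members lay lower in the eccentric pool without overlap (Tnnt3, Tnni2, Tnnt1, Tnnc1, Tpm2 and Tpm3), 1 lay higher (Tpm1) and 2 overlapped, where 24.3% of 7372 measured probe sets lay lower and 28.3% higher. The median log2 difference was -0.25 against 0.02 over all measured probe sets, and 0 of 9 passed the 2-fold rule against a background of 2.25%. The same rule was passed by 0 of 9 for isometric against control, with a background of 1.32%. The 3 comparisons share pools with each other, so their values are given side by side and are not independent.

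Most probe sets on a list of other muscle genes lay lower too. The list of skeletal muscle genes (Ckm, Acta1, Mylpf, Des, Ryr1, Cacna1s and Mb) was above the floor on all 6 arrays for each gene, and its 9 measured probe sets had a median eccentric minus control log2 difference of -0.33, with 7 lower and 1 higher without overlap, where 31.5% of all measured probe sets lay lower and 30.1% higher. Relative to that median, a comparison chosen after seeing the data, the eccentric minus control log2 difference was -0.26 for Tnni2, -0.24 for Tpm2, -0.18 for Tnnc1 and -0.12 for Tpm3, and between 0.01 and 0.29 for the other 5 members. Acta1, at 30640.9 to 41439.7, lies in the range stretched on control A and isometric B. Probe sets of Ryr1 (15772 to 20534), Mb (13227.4 to 23282.1) and Ckm (12909.1 to 21587.9) lie near or above the level of Tpm2, itself among the brightest. The part of that stretch in the list was not tested. Fewer muscle fibres and less of these RNAs per fibre cannot be told apart in RNA from whole muscle.

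RNA of macrophage and leukocyte genes moved with the same contrast, and fibroblast and smooth muscle genes are given beside it. The summed signal of 22 probe sets of 14 macrophage and leukocyte genes was 25442.8 and 25195.3 on the eccentric arrays, 14726.1 and 14377.8 on the isometric arrays, and 8112.1 and 8735.8 on the control arrays. Of the 15 of these measured in the eccentric and control pools 10 were called 2-fold higher, against 4.86% of all measured probe sets, none was listed at 0, and 5 of the 22 lay below the floor on every array. Fibroblast genes summed to 36819.5 to 38064.6 on the eccentric, 39134.3 to 41615.4 on the isometric and 38645.5 to 39423.6 on the control arrays, with 1 of 12 measured probe sets called higher (Col3a1, a collagen, not called without control A or without eccentric B). Smooth muscle genes, whose cells also express Tpm1 and Tpm2, summed to 3378.9 to 3512.6 on the eccentric, 3951.8 to 4084.0 on the isometric and 3484.4 to 3670.8 on the control arrays, with 0 of 4 called. Beta-actin probes near the 3′ end, set against those near the 5′ end as a gauge of how intact the RNA was, gave a log2 ratio of 0.43 and 0.45 on the eccentric, 0.14 and 0.28 on the isometric, and 0.01 and 0.07 on the control arrays. The same ratio for Gapdh was 0.12 and 0.13 on the eccentric, -0.07 and 0.27 on the isometric, and -0.05 and -0.07 on the control arrays, so its highest array was isometric B. The part of these cells and of RNA quality in the troponin and tropomyosin values was not tested.

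Among other genes of the thin filament, 3 of 9 measured probe sets lay higher and 5 lower in the eccentric than in the control pool without overlap, where 30.1% of all measured probe sets lay higher and 31.5% lower. Tpm4, a tropomyosin of non-muscle cells, read 2068.9 and 2157.2 on the eccentric arrays, 1532.6 and 1321.9 on the isometric arrays, and 999.1 and 1314.7 on the control arrays. Its eccentric minus control log2 difference of 0.88 was opposite in direction to those of Tpm2 and Tpm3, without overlap, though it did not pass the 2-fold rule except with control B left out. Of 9 measured probe sets on the thin-filament list 2 were called lower, against 1.11% of all measured probe sets, and 0 higher, and both belong to Actc1, cardiac alpha-actin, at log2 differences of -2.52 and -1.44, on probe sets open to other actins. The skeletal alpha-actin Acta1 differed by -0.23, close to Tnnt3 and Tnnc2. The list median was -0.20 for eccentric minus control and 0.07 for isometric minus control, where 0 of 9 were called, against 1.32% of all.

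Fast-fibre genes other than the troponins also lay lower in the eccentric pool. Of 13 measured probe sets, 11 lay lower in the eccentric than in the control pool without overlap and 0 higher, where 31.5% of all measured probe sets lay lower and 30.1% higher. Their median log2 difference was -0.28, and 0 were called, against 1.11% of all called lower. Casq1, the calcium store protein of the fast-fibre sarcoplasmic reticulum, had the largest of these differences at -0.67, Myh4, the myosin heavy chain of the fastest fibres, had -0.27 on its bright probe set, and Pvalb, a calcium buffer of fast fibres, had -0.28 and -0.52. The bright probe sets of Myh4 and Pvalb lie near the level of Tnnt3, in the range stretched on control A and isometric B. Their closest pairings were -0.06 and -0.01, against -0.43 for the dimmer Pvalb probe set and -0.52 for Casq1. These 2 were also bright. Casq1 read 15771.7 to 32862.2, near the level of Tnnc2, and the dimmer Pvalb probe set 9952.1 to 15205.2, near that of Tpm2. The part of the stretch in these values was not tested. For isometric minus control the median was -0.01, and all 13 overlapped, where 38.0% of 7336 measured probe sets showed no overlap in either direction.

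The 5 measured probe sets of other slow-fibre genes went both ways. For eccentric against control 1 was called higher and 0 lower, where 4.86% and 1.11% of all measured probe sets were called. Atp2a2, the calcium pump of slow fibres and heart, was called higher in the eccentric pool at 281.5 and 293.0, against 40.7 and 157.5 in the control pool, of which control A lay below the floor. The Atp2a2 probe set carries a suffix for shared probes, so signal from other sequences cannot be told apart. Without control A the log2 difference of 0.87 was not called. Myl3, the essential light chain of slow muscle, had an eccentric minus control log2 difference of -0.40, and Mb, myoglobin, one of -0.63. Both lay lower without overlap, where 31.5% of all measured probe sets did so. The list median was -0.02 for eccentric minus control and 0.32 for isometric minus control, where 0 of 5 were called, against 1.32% of all. Of 3 measured probe sets of developmental myosins 0 were called in either comparison, where 5.97% and 1.32% of all measured probe sets were called. Of these 3, 2 belong to Myl4, a light chain of embryonic muscle and atrium. They lay on opposite sides of 0 at -0.19 and 0.19 for eccentric minus control.

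**Figure D4:**
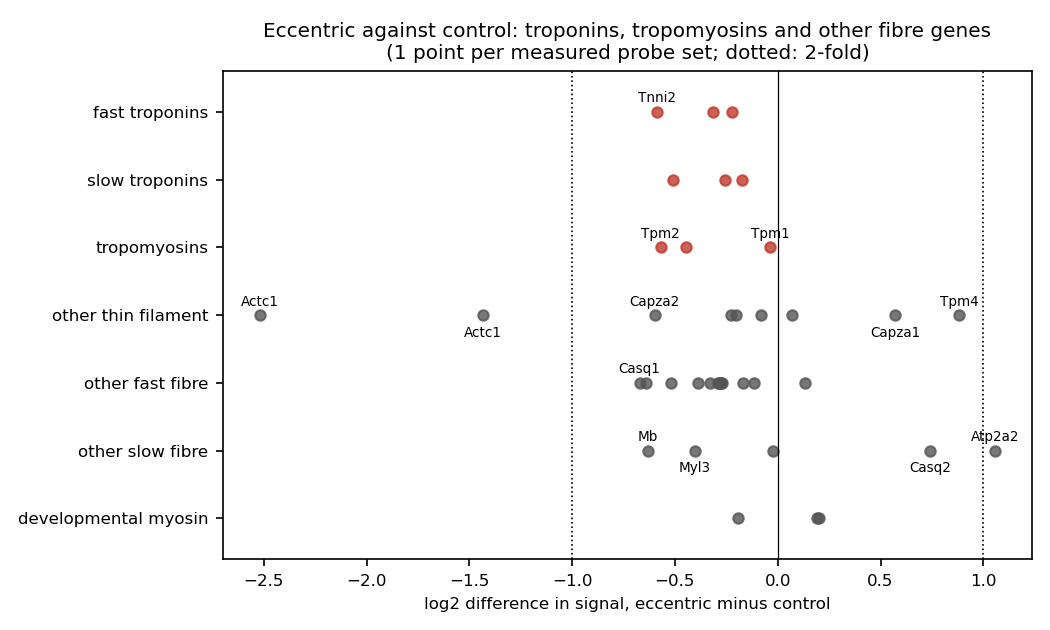
Log2 difference in signal of eccentric minus control (horizontal axis) for each measured probe set, in rows for the fast troponins, slow troponins and tropomyosins (red) and for 4 lists of other fibre genes (grey), with dotted lines at 2-fold. All red points lie below 0 and above -1, while Actc1 lies beyond -1 and Tpm4 and Atp2a2 lie near 1.

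Several troponin genes lie side by side as pairs of an inhibitory and a tropomyosin-binding subunit. In the RefSeq gene order Tnni2 and Tnnt3 lie on chromosome 7 with 1 protein-coding gene, Lsp1, between them, Tnnt1 lies on chromosome 7 next to the cardiac gene Tnni3, and Tnni1 lies on chromosome 1 with Lad1 between it and the cardiac gene Tnnt2. The neighbours Tnni2 and Tnnt3 had eccentric minus control log2 differences of -0.59 and -0.32. The cardiac genes were dim: Tnnt2 lay below the floor on all arrays, at 45.9 to 92.7, and Tnni3 passed it only on eccentric A, at 152.3, and isometric B, at 128.9.

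Likeness of profile was measured as the root mean square difference in centred log2 signal over the 6 arrays, for 5644 probe sets with 1 gene symbol that lay above the floor on all arrays. The mean profile of the 3 fast troponins stood at -0.24 and -0.20 on the eccentric arrays, -0.10 and 0.23 on the isometric arrays, and 0.32 and -0.01 on the control arrays, so its highest arrays were control A and isometric B. The 5 genes nearest to it were Bckdk (0.03), Clcn1 (0.04), Eef1a2 (0.04), Eno3 (0.05) and Uqcrq (0.05), where a gene equal on all arrays would stand at 0.21. The mean profile of the 3 slow troponins was set mainly by eccentric A, at -0.47, with the other 5 arrays between -0.01 and 0.25. On eccentric A the Tnnc1 signal of 104.5 had been raised to the floor, and the part of Tnnc1 in this profile was not tested. The genes nearest to the slow profile were Atf6b (0.07), Mrps7 (0.07), Mdm4 (0.07), Pole4 (0.08) and Bcat2 (0.08), where a gene equal on all arrays would stand at 0.22.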

How the data were processed

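Expression was measured on 6 Affymetrix MGU74Av2 arrays, 2 for each pool. The deposited values are linear intensities, 1 for each probe set on each array. All are above 0, and the arrays share a mean of 500.3 once the highest and lowest 2% are removed. Of the authors' software, background correction and probe summary, none is given in the sources used here. Members were matched by gene symbol in the platform annotation, and all 13 probe sets had the same symbol in RefSeq. Each array was scaled to 1 trimmed mean (factors of at most 1.00002), values under 120.8 were raised to that floor, and log2 values were computed. A probe set was called when the pools' mean log2 intensities differed 2-fold and all 4 array pairings had the same sign. Lists are counted by probe set. The naming rule took all members and, of the 4 lists of other fibre genes, every called gene and otherwise up to 4 per list and comparison. The called macrophage and leukocyte probe sets were counted but not named. The members and lists were chosen with earlier results of these data known. Comparisons with dim probe sets or other settings, and limma over the arrays with Benjamini-Hochberg adjustment, which compares the pools and not the conditions, were alternatives. Control probe sets were left out of the counts of measured and called probe sets. They remained in the floor, in the ranks among 12488 and in the 6273 probe sets compared between array letters. The number of arrays limits the precision. Python 3.11.15, pandas 2.3.3, numpy 2.4.6, R 4.3.3 and limma 3.58.1 were used.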

Additional observations from a re-analysis of the deposited data

Results flagged for a closer look

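Myl3, the essential light chain of slow muscle and a gene of the slow-fibre list, lay below the control pool on both eccentric arrays and above it on both isometric arrays. Its signals were 368.0 and 361.8 on the eccentric arrays, 602.5 and 603.3 on the isometric arrays, and 440.2 and 529.3 on the control arrays. The log2 difference was -0.40 for eccentric minus control and 0.32 for isometric minus control. The difference between these 2 effects was not tested, since each pool is 1 sample, and both use the same control arrays. None of the 9 measured troponin and tropomyosin probe sets showed such opposite placement. Only the members and the lists of other fibre genes were searched, so its share over all measured probe sets is not known here.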

How the results depend on the processing

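The count of members passing the size rule, 0 in each comparison, stayed 0 in all 3 comparisons under median scaling, quantile normalization, a floor at the 60th percentile and no filter on dim probe sets. With 1 array left out it ran from 0 to 1 in each comparison: Tnnc1 without eccentric B (against control and against isometric), and the dim probe set of Tnnt1 without isometric B (isometric against control and eccentric against isometric), where 1.59% to 7.79% of all measured probe sets were called. Without both control A and isometric B it was 1 for isometric against control and 1 for eccentric against isometric, the same dim Tnnt1 probe set, and 0 for eccentric against control, where 2.61%, 3.40% and 6.17% of all were called. A floor at the 20th percentile gave 1 for eccentric against control and 1 for isometric against control, in both the dim probe set of Tpm2, where 8.71% and 4.24% of all were called. With no floor, chosen after seeing the data, there were 2 for each of these, the dim probe sets of Tpm2 and Tnnc2, against 12.4% and 8.19%. At 1.5-fold 1 member, Tnni2, passed for eccentric against control, against 19.6% of all measured probe sets, and 2, Tpm2 and Tnnc1, for eccentric against isometric, against 12.5%. The count of members with no overlap for isometric against control, 3 in the report, ran from 5 to 8 with 1 array left out, where the share of all measured probe sets with no overlap in either direction was 65.2% to 71.0%, against 38.0% with all arrays. It was 11 of 11 measured members with control A and isometric B both removed, when a single pairing is left and can hardly overlap. For eccentric against control the count was 4 to 9 under all alternatives, beside 37.1% to 85.8% of all probe sets compared, against 61.6% with all arrays. The slow minus fast troponin median for eccentric against isometric, 0.15, ran from -0.10 to 0.35 with 1 array left out and was also -0.10 once control A and isometric B were both removed. The other slow minus fast medians moved by less than the spread between arrays, although that for eccentric against control was -0.26 under quantile normalization. Of 297 log2 differences of single members under alternatives 18 moved by more than the spread between arrays, most of them when set against the skeletal muscle list.

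limma over the arrays called 0 members in each comparison, with 2 (Tpm2 and Tnni2), 0 and 2 (Tpm2 and Tpm3) at an unadjusted p under 0.05 for eccentric against control, isometric against control and eccentric against isometric. Over all measured probe sets, 1995 of 7486, 771 of 7336 and 1410 of 7372 had an unadjusted limma p under 0.05, in the same order. After adjustment limma called 644, 0 and 67, where the size rule called 447, 97 and 166. With the array letter as a replicate block it called 0 members in each comparison and 323, 0 (681 unadjusted) and 9 probe sets. Whether the letters pair arrays was not settled. The difference of A minus B correlated at 0.03 (eccentric with control), -0.17 (isometric with control) and -0.03 (eccentric with isometric) across 6273 probe sets. Control A and isometric B, of unlike letters, share the stretched bright end, so low correlations cannot exclude a pairing by letter. With isometric letters crossed against control, chosen after seeing the data, limma called 0 members and 0 probe sets (621 unadjusted). With 2 arrays of 1 pool per group, differences of the size seen here cannot be assigned to the contractions.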

Other observations

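The capping proteins that close the barbed end of the actin filament differed in opposite directions between their subunit genes. Capza1 read 1102.4 and 1129.0 on the eccentric arrays, 811.5 and 831.9 on the isometric arrays, and 718.5 and 783.7 on the control arrays, an eccentric minus control log2 difference of 0.57. Capza2 read 2231.3 and 2369.7 on the eccentric arrays, 3881.7 and 3059.5 on the isometric arrays, and 3366.3 and 3603.1 on the control arrays, a log2 difference of -0.60. Both eccentric arrays lay outside the range of the other 4 for each gene, and neither passed the 2-fold rule. Capzb, the beta subunit, had -0.20 and -0.08 on its 2 measured probe sets. Tmod3, a tropomodulin that caps the pointed end, had 0.07.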
